A study of Mus musculus with 10 samples.

Results

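Pcgf3, Pcgf5, Auts2, Fbrs, Fbrsl1, Csnk2a1 and Csnk2b encode the subunits that set the PCGF3 and PCGF5 forms of Polycomb repressive complex 1 (PRC1) apart from its other forms. They were chosen by symbol as a list of 7 genes out of 36191 gene IDs in the count table. All 7 were among the 15819 genes with enough counts to test. Across differentiation of mouse embryonic stem (ES) cells toward the heart lineage, Auts2 and Fbrs rose between the ES cells and the later cultures in both genotypes, and Csnk2a1 fell by day 14 in both. Pcgf5 rose at day 8 and fell again by day 14 in wild type, while no change of Pcgf3, Fbrsl1 or Csnk2b passed the test. In the null the order of days for Pcgf5 was the same, but neither step passed, nor did their difference from wild type. Both Pcgf5 calls, and all Fbrs calls but that of day 14 in the null, were lost with DESeq2, a second method. No difference of any of the 7 between Rybp-null and wild type cultures passed at day 8 or day 14.

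The study sequenced RNA of wild type and Rybp null mutant mouse cells along cardiac differentiation, to compare their transcriptomes. Both genotypes had the strain background 129x1 x 129S1. Each genotype gave 1 library of undifferentiated ES cells (day 0), 2 libraries of ES-derived cardiac cultures at day 8 and 2 at day 14, which makes 10 libraries. The cultures had passed through embryoid bodies made in hanging drops, the ES cells had been grown in serum with leukemia inhibitory factor, and no other agent is named in the labels. The labels do not say how many ES cell clones stood behind each genotype or that replicates were separate cultures. Thus p-values measure only the spread between these libraries, which may be technical. The lone day 0 libraries give no spread of their own, so comparisons with day 0 use that of the day 8 and day 14 pairs.

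PRC1 places ubiquitin on histone H2A through the ligases RING1 (Ring1) and RING1B (Rnf2), and each complex holds a PCGF protein that decides which partners join. The variant complexes also hold RYBP or its paralog YAF2, and those built on PCGF3 or PCGF5 bind AUTS2 or its relatives FBRS and FBRSL1 together with casein kinase 2 (CK2). They are known for marking chromatin on the X chromosome that Xist RNA coats, and the AUTS2 form is known in neurons for switching from repression to activation through CK2 and the acetyltransferase P300. RYBP, which the mutant lacks, is thus a shared partner of the products of these genes.

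The regions before the start sites of 4 of these genes are shown, because 3 of them (Pcgf5, Fbrs and Csnk2a1) changed with differentiation and Pcgf3 is the paralog of Pcgf5 that did not pass. Each is the 250 bases before a start in RefSeq on GRCm38, plus strand, read 5′ to 3′. Capitals mark motifs: the GC box, spelled GGGCGG, the box spelled CCAAT, and the TATA box, spelled TATAAA. Both strands were searched, so the GC box also appears as its reverse complement CCGCCC. Pcgf3 lies at chr5:108461009-108461258, Pcgf5 (the first of 3 listed starts) at chr19:36348079-36348328, Fbrs at chr7:127478708-127478957 and Csnk2a1 at chr2:152226590-152226839.
Pcgf3: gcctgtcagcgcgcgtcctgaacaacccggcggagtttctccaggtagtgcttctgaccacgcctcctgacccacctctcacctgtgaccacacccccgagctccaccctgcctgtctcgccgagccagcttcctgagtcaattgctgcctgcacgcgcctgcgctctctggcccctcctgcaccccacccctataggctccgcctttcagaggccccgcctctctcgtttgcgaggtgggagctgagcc
Pcgf5: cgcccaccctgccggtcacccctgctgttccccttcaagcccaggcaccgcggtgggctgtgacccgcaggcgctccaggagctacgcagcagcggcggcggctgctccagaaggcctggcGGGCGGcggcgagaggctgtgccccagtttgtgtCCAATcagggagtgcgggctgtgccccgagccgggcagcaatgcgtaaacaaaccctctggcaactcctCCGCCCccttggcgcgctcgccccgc
Fbrs: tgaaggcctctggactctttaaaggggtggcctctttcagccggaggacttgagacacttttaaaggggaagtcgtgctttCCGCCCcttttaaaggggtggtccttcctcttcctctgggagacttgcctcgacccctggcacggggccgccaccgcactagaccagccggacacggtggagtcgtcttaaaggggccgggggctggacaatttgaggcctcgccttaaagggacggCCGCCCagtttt
Csnk2a1: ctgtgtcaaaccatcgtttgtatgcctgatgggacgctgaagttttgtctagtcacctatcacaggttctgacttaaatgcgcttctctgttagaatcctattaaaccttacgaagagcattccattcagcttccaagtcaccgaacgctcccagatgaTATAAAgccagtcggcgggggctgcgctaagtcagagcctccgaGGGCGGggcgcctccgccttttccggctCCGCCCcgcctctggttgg

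The Pcgf3 window held none of these motifs and 16 CpG dinucleotides. The Pcgf5 window held 23 CpGs, GC boxes at 129 and 26 bases before the start and a CCAAT box at 95 bases. The windows of its later listed starts, not printed, differed. The second held 4 CpGs and none of these motifs, and the third 28 CpGs and a GC box at 87 bases. The Fbrs window held 14 CpGs and GC boxes at 169 and 12 bases. The Csnk2a1 window held 16 CpGs, GC boxes at 47 and 19 bases and a TATA box at 91 bases. Of all 32851 windows of this length in the table, 32.7% held a GC box, 33.8% a CCAAT box and 12.4% a TATA box, and the median window had 6 CpGs with an upper quartile of 16. The cAMP response element (TGACGTCA, in 1.55% of all windows), the E-box (CACGTG, 6.02%) and the ETS site (CCGGAAG, 6.91%) were also searched, and none of the 4 windows printed here held them. Of the 7 genes, 6 matched a window in the table, and Auts2 did not. A match describes letters in the window and is not a measured binding site.

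The libraries held 3028153 to 6890792 counts. Levels are in CPM, counts scaled to the size of the library by TMM (edgeR's trimmed mean of M-values), and 1 count stood for 0.169 to 0.330 CPM. Rybp itself had 231 counts in wild type ES cells, 120 and 153 by day 8, and 64 and 92 by day 14, against 3 in null ES cells, 2 and 1 in null cultures of day 8, and 4 and 2 in those of day 14, so the labels held. The null replicates at day 8 stood apart from each other: the chi-square per degree of freedom between them was 16.7, against 3.48 and 4.77 for the wild type pairs of days 8 and 14 and 10.1 for the null pair of day 14. The summed level of 8 cardiomyocyte markers was 2132 to 2587 CPM in wild type at day 8 and 68.5 to 121 CPM in the null. The latter was below the 153 CPM of null ES cells, with Myl7 and Nppa at 0 in both null day 8 libraries. In bulk RNA, fewer cells of a type and less RNA per cell cannot be told apart.

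Per kilobase of exon (CPM per kb, with the length of all exons annotated to a gene), the kinase subunits were the most abundant. The transcripts expressed may hold only part of these exons, so the order of the genes depends on this length. Csnk2a1, the catalytic subunit, ran from 17.8 to 42.1 CPM per kb with a median of 20.01 over the 10 libraries, and Csnk2b, the regulatory subunit, from 13.8 to 30.0 with a median of 23.3. The ranges of this pair overlapped. Pcgf3 came next, at 4.23 to 8.13 CPM per kb (median 5.83), below every Csnk2b value and above every value of the other 4 genes. Auts2 (0.924 to 3.96 CPM per kb, median 3.12) and Fbrs (0.660 to 3.93, median 2.62) overlapped over nearly their whole ranges. Pcgf5 (0.667 to 1.99 CPM per kb, median 1.10) and Fbrsl1 (0.449 to 0.979, median 0.637) were lowest and also overlapped. Without the scaling for length, Auts2 stood in second place by mean CPM. Its annotated exons span 22.9 kb, and those of Csnk2b 2.07 kb.

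**Figure D1:**
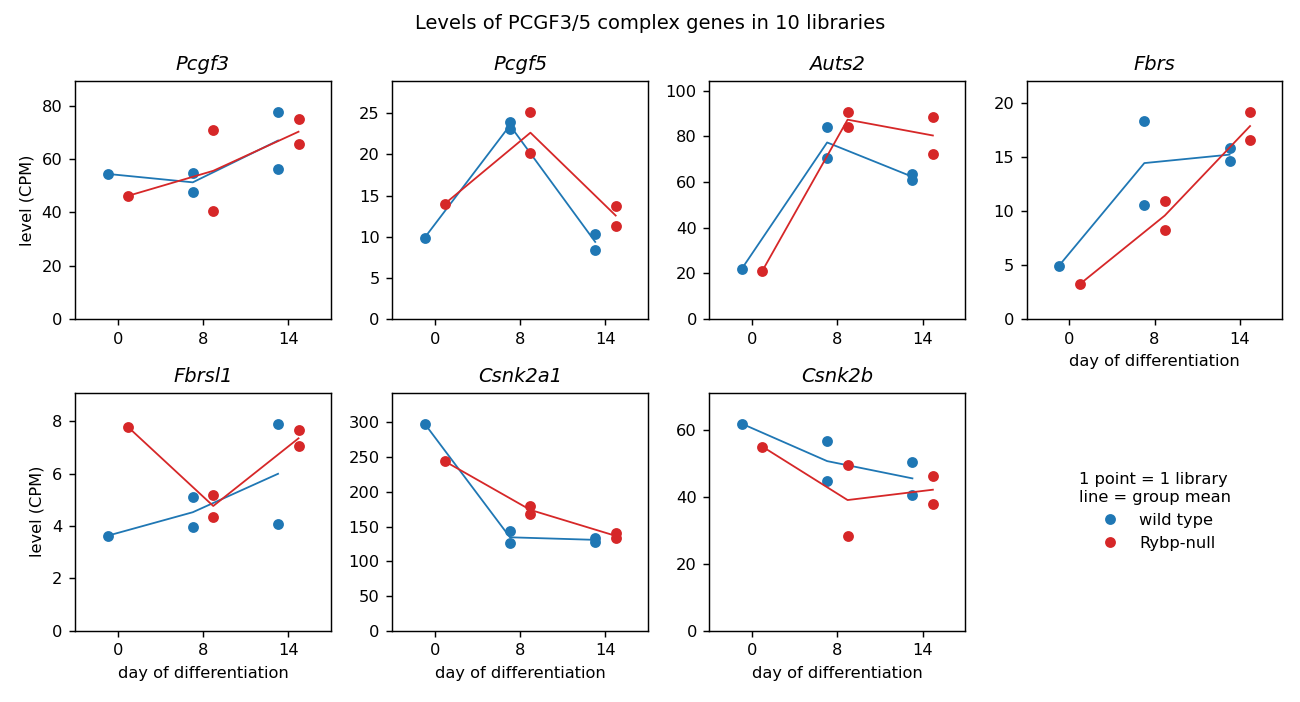
Level of each gene in CPM (vertical axis, from 0) by day of differentiation (0, 8 and 14, evenly spaced). Each point is 1 library, blue for wild type and red for Rybp-null, and lines join group means. Auts2 and Fbrs are lowest at day 0, Csnk2a1 is highest there, and Pcgf5 is highest at day 8 in both genotypes.

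Pcgf3 and Pcgf5 encode the alternative core subunits that hold the ligase and AUTS2. Pcgf3 stood at 54.4 CPM in wild type ES cells, 47.6 and 55.0 on day 8, and 56.3 and 77.6 on day 14. In the null it stood at 46.2 CPM at day 0, 40.4 and 70.8 on day 8, and 65.6 and 74.9 on day 14. The day 8 values lay on both sides of day 0 in each genotype, and the null day 8 replicates were the farthest apart of any pair for this gene. The log2 difference of day 8 from day 0 was -0.09 (95% interval -0.82 to 0.65) in wild type and 0.26 (-0.46 to 0.99) in the null. That of day 14 from day 0 was 0.30 (-0.44 to 1.04) in wild type and 0.60 (-0.13 to 1.34) in the null.

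Pcgf5 was at 9.90 CPM in wild type ES cells, 24.0 and 23.1 on day 8, and 10.3 and 8.42 on day 14. Both day 8 libraries were above all 3 others of that genotype. Pcgf5 rose 2.37-fold from day 0 to day 8 in wild type (log2 1.25, SE 0.39, edgeR adjusted p = 0.0241). It then fell from day 8 to day 14 (log2 -1.33, SE 0.31, edgeR adjusted p = 0.0307), 2.51-fold, to a level whose difference from day 0 was -0.08 on the log2 scale (interval -0.95 to 0.79). In the null, Pcgf5 stood at 14.05 CPM at day 0, 25.1 and 20.1 on day 8, and 13.8 and 11.4 on day 14. The order of the days was the same, with no overlap between day 8 and the other days, but neither step passed: the log2 difference was 0.69 (interval -0.09 to 1.47, edgeR adjusted p = 0.149) for day 8 against day 0 and -0.85 (-1.495 to -0.21, edgeR adjusted p = 0.108) for day 14 against day 8. The difference of these steps between genotypes was itself tested and did not pass either, at -0.56 (SE 0.52, edgeR adjusted p = 0.822) for days 0 to 8 and 0.48 (SE 0.43, edgeR adjusted p = 0.950) for days 8 to 14.

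Both Pcgf5 calls rested on few libraries. The call of the day 8 rise was lost without either wild type day 8 replicate (log2 1.22, adjusted p = 0.0749 without replicate 1, and 1.27, adjusted p = 0.0624 without replicate 2) and with DESeq2 (adjusted p = 0.110, the highest over 15 alternatives, of which the lowest was 0.0026). The call of the fall by day 14 was lost with DESeq2 (adjusted p = 0.0880) and when any 1 of the 4 wild type libraries of days 8 and 14 was left out, with log2 values of -1.30 and -1.35 without day 8 replicates 1 and 2, and -1.48 and -1.18 without day 14 replicates 1 and 2. Over the 15 alternatives its adjusted p ran from 0.0063 to 0.271, and the direction was the same in each. Summed levels of 4 erythroid markers moved with Pcgf5: they were 3.30 CPM in wild type ES cells, 218 to 241 by day 8 and 3.32 to 19.2 at day 14, and 2.37, 205 to 434 and 7.04 to 7.91 in the null. Hba-a1 and Hbb-bt were at 0 in both day 0 libraries, and Hbb-bt in both wild type day 14 libraries. Erythroid markers were not alone in this. The sum of 4 endothelial markers was 73.2 CPM in wild type ES cells, 399 to 418 by day 8 and 135 to 179 at day 14. In the null it was 79.2, 250 to 296 and 95.4 to 134 CPM. Smooth muscle markers were also highest at day 8 in both genotypes, and cardiomyocyte markers in wild type alone. Pluripotency and mesenchyme markers were not highest at day 8. The part of any of these cells in the Pcgf5 values was not tested.

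Within a library, the ratio of Pcgf5 to Pcgf3 per kb does not depend on scaling between libraries. It was 0.137 in wild type ES cells, 0.380 and 0.318 by day 8, and 0.139 and 0.0820 by day 14. In the null it was 0.230 at day 0, 0.471 and 0.215 on day 8, and 0.159 and 0.115 on day 14. Pcgf3 was thus the more abundant paralog in all 10 libraries, and the ratio was highest at day 8 in wild type. In the null, day 8 replicate 2 lay below the day 0 library, so the groups there did not separate.

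**Figure D2:**
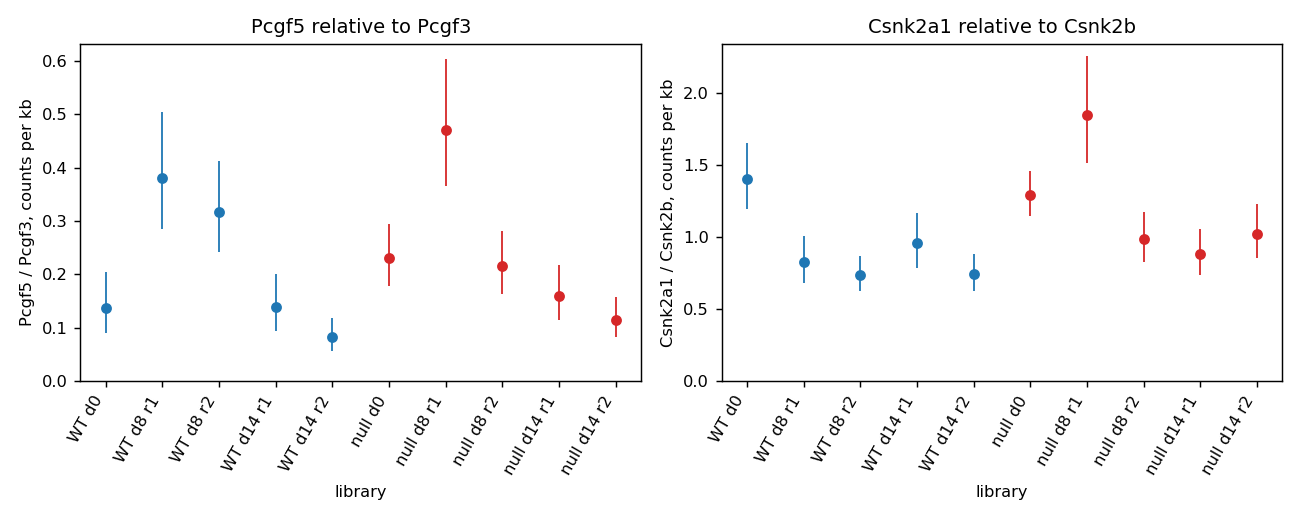
Ratio of Pcgf5 to Pcgf3 (left) and of Csnk2a1 to Csnk2b (right) in counts per kb of exon, in each of the 10 libraries (blue wild type, red Rybp-null). Bars are 95% counting intervals. The Pcgf5 to Pcgf3 ratio is at most 0.471, and null day 8 replicate 1 has the highest value in both panels.

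Auts2, Fbrs and Fbrsl1 encode the related scaffold proteins, of which AUTS2 is the one tied to gene activation in neurons. Auts2 stood at 22.1 CPM in wild type ES cells, 84.0 and 70.7 on day 8, and 61.1 and 63.6 on day 14. The null values were 21.2 CPM at day 0, 90.7 and 84.0 on day 8, and 88.7 and 72.2 on day 14. All 8 libraries of differentiated cultures were above both ES cell libraries. Auts2 rose 3.49-fold by day 8 in wild type (log2 1.81, SE 0.28, edgeR adjusted p = 0.000343) and 4.13-fold in the null (log2 2.04, SE 0.28, edgeR adjusted p = 0.000119). At day 14 it was still 2.82-fold above day 0 in wild type (log2 1.495, SE 0.28) and 3.80-fold above in the null (log2 1.92, SE 0.27). These 4 calls held in all 15 alternatives, and the comparisons of days 8 and 14 with day 0 share the day 0 library of each genotype. None of the alternatives could leave out that single library, so how far the calls rest on it was not tested. The change from day 8 to day 14 did not pass, at -0.31 (interval -0.75 to 0.13) in wild type and -0.12 (-0.56 to 0.32) in the null.

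Fbrs, which encodes fibrosin, was at 4.95 CPM in wild type ES cells, 10.5 and 18.3 on day 8, and 14.6 and 15.8 on day 14. In the null it was at 3.22 CPM at day 0, 8.22 and 10.9 on day 8, and 19.1 and 16.6 on day 14. The day 0 libraries, with 15 and 19 counts, were the lowest in each genotype. Fbrs rose by day 8 in wild type (log2 1.54, SE 0.51, edgeR adjusted p = 0.0295, 2.92-fold) and in the null (log2 1.56, SE 0.50, edgeR adjusted p = 0.0269, 2.95-fold). By day 14 it was 3.06-fold above day 0 in wild type (log2 1.62, SE 0.51, edgeR adjusted p = 0.0215) and 5.50-fold above in the null (log2 2.46, SE 0.50, edgeR adjusted p = 0.00159). In the null, day 14 was above day 8 without overlap, but the step did not pass (log2 0.90, interval 0.12 to 1.68, edgeR adjusted p = 0.158), nor did its difference from the wild type step (0.83, SE 0.50, edgeR adjusted p = 0.895).

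The Fbrs call of day 14 against day 0 in the null held in all 15 alternatives, and the other 3 did not. None of the alternatives left out the day 0 library of the genotype compared. The day 8 call in wild type was lost without wild type day 8 replicate 2 (log2 1.09, adjusted p = 0.161) and with DESeq2 (adjusted p = 0.101), in a range of 0.00386 to 0.161. The day 8 call in the null was lost without null day 8 replicate 2 (log2 1.34, adjusted p = 0.0725), with DESeq2 (0.0826) and with only the groups compared in the fit (0.0836, the highest, the lowest being 0.0140). The day 14 call in wild type was lost without wild type day 14 replicate 2 (log2 1.56, adjusted p = 0.0669) and with DESeq2 (0.0800, the highest, the lowest being 0.00325).

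Fbrsl1 had 11 to 46 counts per library, the fewest of the 7. It stood at 3.63 CPM in wild type ES cells, 5.11 and 3.95 on day 8, and 7.91 and 4.08 on day 14, and in the null at 7.78 CPM at day 0, 4.35 and 5.18 on day 8, and 7.04 and 7.66 on day 14. The wild type day 14 replicates had the widest gap of any pair, and the null ES cells were the second highest of the 10 libraries. No change passed, and the intervals were wide: the log2 difference of day 8 from day 0 was 0.31 (-1.09 to 1.71) in wild type and -0.71 (-1.89 to 0.47) in the null. At this depth a 2-fold fall of Fbrsl1 lay inside both intervals, and a 2-fold rise inside that of wild type alone.

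Of the summed level per kb of these 3 relatives, Auts2 made up 39.7% in wild type ES cells, 56.7% and 42.1% on day 8, and 40.2% and 42.5% on day 14. In the null it made up 36.3% at day 0, 64.0% and 56.0% on day 8, and 44.7% and 42.0% on day 14. The largest share in each genotype was thus at day 8, although wild type day 8 replicate 2 lay within the range of day 14. Fbrsl1 took 37.8% in null ES cells and 18.5% in wild type ES cells, and 6.65% to 14.7% in the 8 later libraries. These shares depend on the exon lengths used.

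Markers of mesenchyme, like Auts2 and Fbrs, were above day 0 at days 8 and 14 in both genotypes. The summed level of Col1a1, Col1a2, Col3a1, Postn and Pdgfra was 21.8 CPM in wild type ES cells, 8390 to 10004 by day 8 and 10820 to 11334 at day 14. In the null it was 8.46, 4806 to 8756 and 12810 to 12942 CPM, with Postn at 0 at day 0. From day 8 to day 14 this sum rose in both genotypes. The mean of Auts2 went from 77.4 to 62.3 CPM in wild type and from 87.4 to 80.4 in the null. That of Fbrs went up, from 14.4 to 15.2 CPM in wild type and from 9.58 to 17.9 in the null. None of these steps of Auts2 and Fbrs passed. Smooth muscle and endothelial markers were also above day 0 at both later days, and cardiomyocyte markers in wild type alone. The sum of 7 neural markers was 155 CPM in wild type ES cells, 103 to 133 by day 8 and 139 to 177 at day 14. In the null it was 85.6, 82.9 to 95.5 and 43.9 to 82.3 CPM, and Dcx was at 0 in both day 0 libraries. The part of any of these cells in the rise of Auts2 and Fbrs was not tested.

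Csnk2a1 encodes the catalytic alpha subunit of CK2 and Csnk2b its regulatory beta subunit. Csnk2a1 stood at 298 CPM in wild type ES cells, 126 and 143 on day 8, and 134 and 128 on day 14. In the null it stood at 244 CPM at day 0, 180 and 168 on day 8, and 140 and 133 on day 14. Both ES cell libraries were above all 8 others, and at day 8 both null values were above both wild type values. Csnk2a1 fell in wild type by day 8 (log2 -1.15, SE 0.19, edgeR adjusted p = 0.000515, 2.21-fold) and was 2.28-fold below day 0 at day 14 (log2 -1.19, SE 0.19, edgeR adjusted p = 0.000345). In the null, the day 8 difference missed the threshold (log2 -0.49, interval -0.90 to -0.07, edgeR adjusted p = 0.0641), while by day 14 it fell 1.78-fold (log2 -0.83, SE 0.19, edgeR adjusted p = 0.00355). The step from day 0 to day 8 differed between genotypes by 0.66 (SE 0.28), with an unadjusted p of 0.0343 and an edgeR adjusted p of 0.514, so that difference did not pass.

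These 3 Csnk2a1 calls held in all 15 alternatives, none of which left out the day 0 library of the genotype compared. The table also lists the copy Csnk2a1-ps with 49 to 130 counts per library, and reads of the pair may have been split by the counting, so the level of Csnk2a1 is uncertain. With the counts of both added together, the log2 values were -1.09 and -1.19 for wild type days 8 and 14 against day 0 and -0.79 for null day 14, all still past the threshold. Pluripotency markers, like Csnk2a1, were highest at day 0 in each genotype. The sum of 7 was 6344 CPM in wild type and 11018 in null ES cells. It was 44.7 to 52.7 and 59.96 to 118 at day 8, and 32.2 to 46.5 and 20.5 to 49.0 at day 14, with no marker at 0. Between the day 0 libraries the order was opposite, with Csnk2a1 lower in the null. The sum of 4 germ cell markers was also highest at day 0, at 138 CPM in wild type and 445 in the null. At day 8 it was 1.97 to 2.24 and 47.9 to 89.2 CPM, with Ddx4 and Mael at 0 in wild type. At day 14 it was 3.35 to 3.57 and 27.2 to 40.0 CPM. The part of any of these cells in the fall was not tested.

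Csnk2b was at 62.0 CPM in wild type ES cells, 44.7 and 56.9 on day 8, and 40.8 and 50.5 on day 14, and in the null at 55.2 CPM at day 0, 28.5 and 49.8 on day 8, and 46.5 and 38.1 on day 14. The ES cell library was the highest in each genotype, and null day 8 replicate 1 was the lowest of all 10. No change passed: the log2 difference of day 8 from day 0 was -0.29 (interval -1.02 to 0.45) in wild type and -0.50 (-1.22 to 0.22) in the null. Without null day 8 replicate 2, the latter became -0.95 with an adjusted p of 0.0296, the lowest of a range up to 0.753 over 15 alternatives. The ratio of Csnk2a1 to Csnk2b per kb was 1.40 in wild type and 1.29 in null ES cells. It was 0.823 and 0.733 on day 8 and 0.955 and 0.741 on day 14 in wild type, and 1.84 and 0.983 on day 8 and 0.882 and 1.02 on day 14 in the null. In wild type the ES cells were thus above all later cultures, while null day 8 replicate 1 exceeded every other library.

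Counted together, 3 of the 7 genes rose and 1 fell from day 0 to day 8 in wild type, against 21.2% of all tested genes higher and 19.3% lower. In the null 2 rose and 0 fell, against 19% and 18.6%. From day 0 to day 14, 2 rose and 1 fell in each genotype, against 24.1% higher and 20.8% lower in wild type and 23.8% and 22.5% in the null. From day 8 to day 14, 0 rose and 1 fell in wild type, where 2.47% of genes were higher and 1.57% lower, and 0 passed in the null, where 4.29% were higher and 3.41% lower. The fall in wild type was that of Pcgf5, and 639 genes were called in that comparison in all, or 108 without wild type day 8 replicate 2. Against these shares, counts of 1 to 3 genes are read gene by gene and not as a property of the list. The median log2 change of the 7 from day 0 to day 8 was 0.31 in wild type and 0.26 in the null, beside 0.13 and 0.04 over all genes tested.

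**Figure D3:**
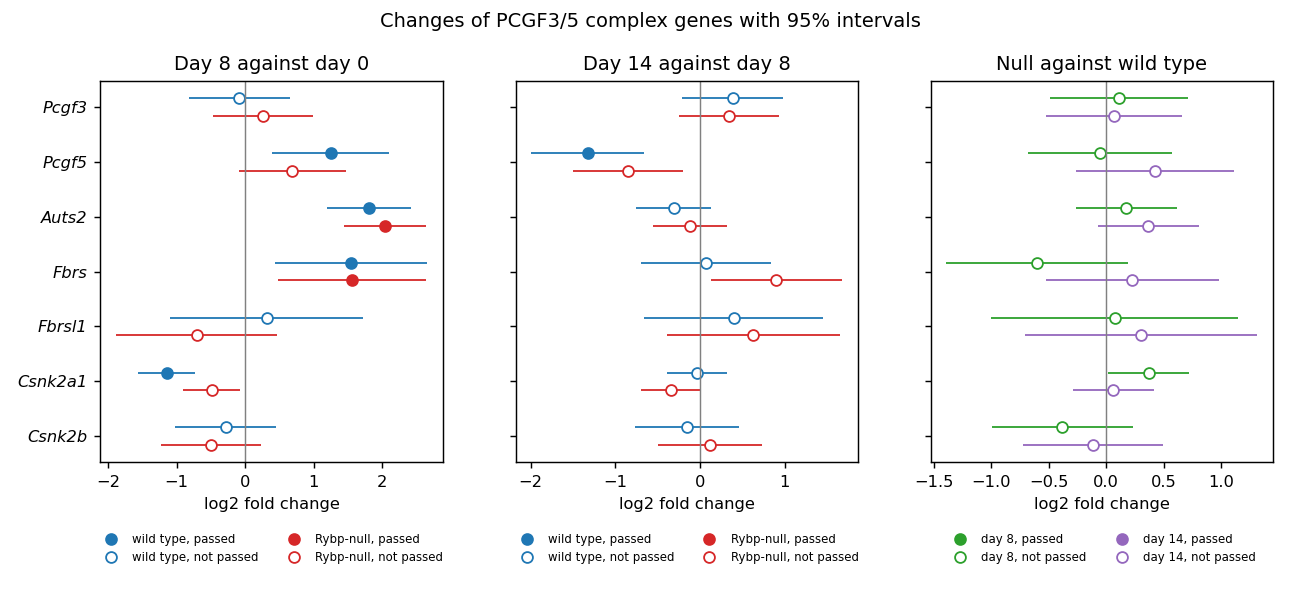
Log2 fold change (horizontal axis) of each gene with its 95% interval, for day 8 against day 0 and day 14 against day 8 in wild type (blue) and Rybp-null (red), and for null against wild type at day 8 (green) and day 14 (purple). Filled circles passed at an adjusted p under 0.05. No circle in the genotype panel is filled, and Auts2 and Fbrs are filled in both genotypes at day 8.

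Between genotypes, 0 of the 7 genes passed at day 8, where 1.26% of tested genes did (200, or 28 without wild type day 8 replicate 1), and 0 at day 14, where 0.613% did (97, or 14 without wild type day 14 replicate 2). DESeq2 also called 0 of the 7 on each day. At an unadjusted p under 0.05 stood 1 of the 7 at day 8 and 0 at day 14, where 13.4% and 12.9% of all tested genes did, so the count is near the background. The 1 gene was Csnk2a1, at 1.29-fold the wild type level in the null (log2 0.37, interval 0.02 to 0.72, unadjusted p = 0.0410, edgeR adjusted p = 0.347). The other differences at day 8 ran from -0.60 for Fbrs (interval -1.39 to 0.19) to 0.18 for Auts2 (-0.26 to 0.61). At day 8 2 of the 7 (Auts2 and Csnk2a1) were higher in both null libraries than in both wild type ones and 0 lower, where 21.1% of all tested genes were higher and 20.9% lower in this way. At day 14 these were 3 (Auts2, Pcgf5 and Fbrs) and 0, against 20.9% and 22.8% of all tested genes, and with 7 genes such counts are not read as a result. The log2 differences of these 3 were 0.37 (-0.07 to 0.81), 0.42 (-0.26 to 1.11) and 0.23 (-0.52 to 0.98), and none passed (edgeR adjusted p = 0.504, 0.654 and 0.871). Pcgf3 differed by 0.11 (-0.49 to 0.71) at day 8 and 0.07 (-0.52 to 0.66) at day 14. The medians of the 7 were 0.07 and 0.23 at days 8 and 14, beside 0.01 and -0.01 over all tested genes.

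The change of the genotype difference between days was tested as well. For days 8 to 14, 0 of the 7 passed, as did 0% of all genes, and 0 of the 7 had an unadjusted p under 0.05, against 6.08% of all genes. For days 0 to 8, 0 of the 7 passed where 0.0316% of all genes did, and 1 of the 7, Csnk2a1, had an unadjusted p under 0.05, against 8.88% of all genes. DESeq2 called 0 of the 7 in both. The 7 genes lie on chromosomes 5 (Pcgf3, Auts2 and Fbrsl1), 19 (Pcgf5), 7 (Fbrs), 2 (Csnk2a1) and 17 (Csnk2b). The median genotype difference of all tested genes on these chromosomes ran from -0.03 to -0.0014 at day 8 and from -0.10 to -0.05 at day 14 on the log2 scale.

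At day 0 each genotype had 1 library, so no test was made, and intervals cover counting error only. Csnk2a1 was at 298 CPM in wild type and 244 in null ES cells, a ratio of 0.818 (95% interval 0.752 to 0.890). Fbrsl1 had 11 counts in wild type and 46 in the null, a ratio of CPM of 2.15 (1.09 to 4.59). It was the 1 gene of the 7 at 2-fold or more with a prior count of 2, where 15.8% of all tested genes were, and none reached 2-fold with a prior count of 5. Pcgf5 was at 9.90 and 14.05 CPM, a ratio of 1.42 (0.925 to 2.23). For the other 4 the interval of the ratio included 1, with ratios of 0.849 for Pcgf3, 0.957 for Auts2, 0.650 for Fbrs and 0.890 for Csnk2b.

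The partners of these complexes were read from 4 lists: the shared core of PRC1, the other PCGF paralogs, relatives and partners of AUTS2 and CK2, and factors of Xist-linked recruitment. From day 0 to day 8, 21.2% of all tested genes were called higher and 19.3% lower in wild type, and 19% and 18.6% in the null, with all-gene medians of 0.13 and 0.04. In the core, Rnf2, the main ligase, fell from day 0 to day 8 in wild type (log2 -0.68, SE 0.23) and in the null (-0.90, SE 0.23), and Rybp fell in wild type (-0.90, SE 0.32). Of the 4 core genes 2 were thus lower in wild type and 1 in the null, and 0 were higher, beside 19.3% and 18.6% of all genes lower. Ring1, with 4 to 23 counts, and Yaf2 did not pass. The median of the core was 0.09 in wild type and 0.23 in the null, beside 0.13 and 0.04 over all genes. In the null it lay between the values of Rybp (-0.34) and Ring1 (0.80). Rybp had 3 counts in null ES cells and 2 and 1 at day 8, so that median is not read.

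Of the other paralogs, Pcgf6, known from germline gene silencing in ES cells, fell in wild type (log2 -1.59, SE 0.32) and in the null (-1.18, SE 0.31). Pcgf2 fell in wild type (-0.74, SE 0.26) and Bmi1 rose in the null (1.57, SE 0.57). Thus 0 of 4 were higher and 2 lower in wild type, and 1 higher and 1 lower in the null, with medians of -1.16 and 0.35. Over all genes 21.2% were higher and 19.3% lower in wild type and 19% and 18.6% in the null, so 1 of 4 either way in the null is near the background. Pcgf1 had 1 to 11 counts and did not pass.

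Among the partners of AUTS2 and CK2, Ep300, which encodes P300, fell by day 8 in wild type (log2 -0.76, SE 0.21), and Csnk2a2, the other catalytic subunit of CK2, fell in the null (-0.85, SE 0.26). That is 1 of 5 lower and 0 higher in each genotype, with medians of -0.33 and -0.20, and it is near the 19.3% and 18.6% of all genes that were lower. Crebbp, the paralog of Ep300, and Dcaf7 and Nrf1 did not pass. The ratio of Csnk2a2 to Csnk2a1 per kb ran from 0.200 to 0.360 over the 10 libraries, so Csnk2a1 was the more abundant catalytic subunit in each.

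Of the 4 genes tied to Xist, Jarid2, which encodes a subunit of PRC2 that reads the mark PRC1 leaves, fell by day 8 in wild type (log2 -2.71, SE 0.21) and in the null (-2.79, SE 0.21). Xist, which had 538 and 846 counts in wild type and null ES cells, had 10 and 18 in wild type and 52 and 98 in the null at day 8, and fell in both (-5.40, SE 0.59, and -2.82, SE 0.51). Spen fell in wild type (-0.97, SE 0.24). Thus 3 of 4 were lower in wild type and 2 in the null, and 0 were higher, beside 19.3% and 18.6% of all genes lower. The medians were -1.84 and -1.52, beside 0.13 and 0.04 over all genes. Xist was 2.27 higher in the null at day 8 on the log2 scale (SE 0.56), which did not pass (edgeR adjusted p = 0.0851). The antisense gene Tsix had 79 and 161 counts in wild type and null ES cells, and without a known strand setting reads of the pair cannot be told apart. Of the 17 partner genes, Bmi1 in the null was the single one above day 0 at day 14 that passed, and 6 in wild type and 7 in the null were lower. Over all genes 24.1% were higher and 20.8% lower in wild type and 23.8% and 22.5% in the null. From day 8 to day 14 none of them passed in either genotype, and between genotypes Rybp was the single one to pass.

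**Figure D4:**
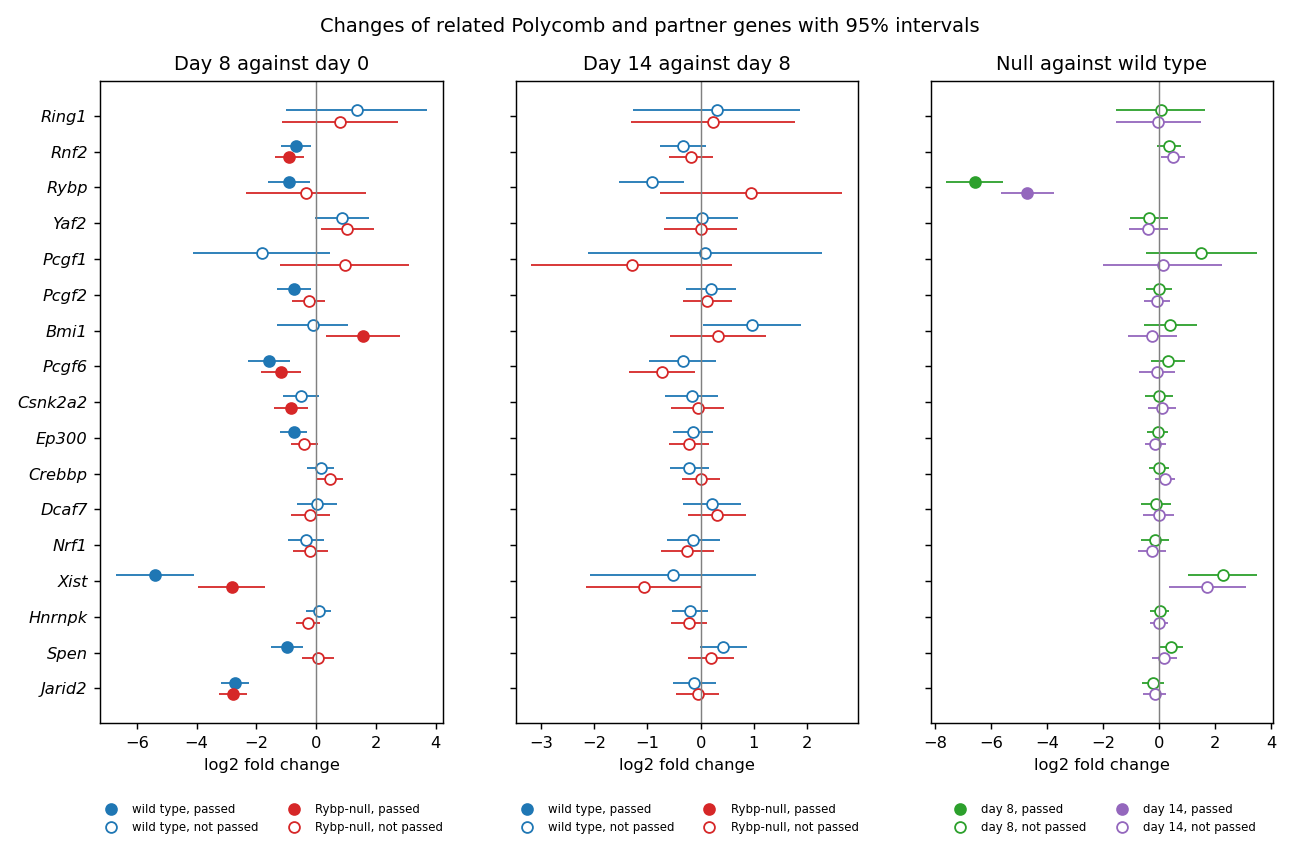
Log2 fold change (horizontal axis) with 95% interval of the 17 partner genes in the same comparisons and colours as for the 7 genes. Filled circles passed at an adjusted p under 0.05. Jarid2, Pcgf6, Rnf2 and Xist are filled below 0 in both genotypes at day 8 against day 0, and Rybp alone is filled in the genotype panel.

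The genes whose log2 CPM followed each changed gene most closely over the 10 libraries, out of 8753 with a mean of at least 10 CPM, were taken as a description. The libraries share groups and scaling, and no test was made. For Pcgf5 they were Tln2 (Pearson r = 0.976), Slc4a1 (0.967), which encodes the anion exchanger of red cells, and Bex3 (0.959). For Auts2 they were Fmo1 (0.988), Gpc6 (0.987), a cell surface proteoglycan, and Gm15298 (0.987), and for Fbrs they were Tm9sf4 (0.982), Atraid (0.970) and Vamp8 (0.965). For Csnk2a1 they were Gart (0.995), an enzyme of purine synthesis, Smndc1 (0.984), a splicing factor, and Nfx1 (0.980). Among the 7 themselves the highest r was that of Auts2 with Fbrs (0.794), and Csnk2a1 ran opposite to both, at -0.821 with Auts2 and -0.871 with Fbrs, while Pcgf3 and Pcgf5 gave -0.548.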

How the data were processed

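RNA of 10 libraries was sequenced. Per the labels' protocols, cells were lysed in TRIzol, and NuGEN kits (Ovation, Encore) served for the libraries from total RNA. The values used are the whole-number read counts per Ensembl gene that the authors deposited, not normalized. The submitters' processing notes name TopHat, HTSeq, DESeq and mm9 as the build. Their versions, the annotation and the strand setting were not given in the sources used here. No row without a gene and 0 columns of other samples were in the table.

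Symbols matched 30946 of 36191 IDs (5245 did not), and 7954 genes had 0 counts in all libraries. Counts were fitted with edgeR 4.0.16 in R 4.3.3: filterByExpr with a minimum count of 10, TMM, and a robust quasi-likelihood model of all 10 libraries with a coefficient per genotype and day (4 residual degrees of freedom, common biological coefficient of variation 0.214). Tests were two-sided and adjusted by Benjamini-Hochberg over 15819 genes, with calls at 0.05; an SE is the size of the log2 fold change divided by the root of its F. The lone day 0 libraries were assumed to vary like the other groups. Day 0 ratios carry exact binomial intervals of 95%, for counting error only.

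Exon lengths and chromosomes came from GENCODE vM21 (GRCm38), not mm9, so no coordinates belong to the counts; promoter windows came from RefSeq. In that annotation 5 genes not used here overlap a member (Pcgf5, Fbrs and Csnk2b with 1 each, Fbrsl1 with 2), and reads of such pairs cannot be told apart. The fit was also run on simulated counts with the same spread for all genes and changes planted in the null at day 8 alone. The wider spread of the null day 8 pair and changes from the lone day 0 libraries were not simulated.

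The members, the lists and the tests were chosen with earlier results of these data known. All 7 members and all 17 listed partners are named whatever their p, with the 3 genes most alike in pattern to each changed member. DESeq2 1.42.0 was an alternative. Library totals in place of TMM, the sum of Csnk2a1 and Csnk2a1-ps, and a crossed replicate block were added after seeing the data.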

Additional observations from a re-analysis of the deposited data

How the results depend on the processing

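Over 15 alternatives run on every comparison and 1 run on a single comparison, 0 of the 13 called values changed sign; of 1057 recomputed values 1005 kept direction and call, 15 lost the call, 1 gained it and 36 changed sign, all among values that had not passed. DESeq2 called 2 of the 7 genes from day 0 to 8 in wild type, 1 in the null and 0 from day 8 to 14 in wild type; a fit of only the groups compared called 1 from day 0 to 8 in the null. At day 0, 0 genes reached 2-fold with a prior count of 5 or with RLE scaling. With library totals, where the median of all genes at day 8 against day 0 moved from 0.13 to 0.33 in wild type and from 0.04 to 0.28 in the null, the log2 change of Pcgf3 at day 8 in wild type was 0.12, those of Pcgf5 at day 14 against day 0 were 0.15 in wild type and 0.13 in the null, and that of Fbrsl1 at day 14 in the null was 0.21. Without a filter on low counts the Fbrs interaction of days 0 to 8 was -0.015. With the replicate number as a block, the Pcgf3 interaction of days 8 to 14 was 0.0085 and the counts of called members were unchanged in all 10 comparisons (4 from day 0 to 8 in wild type). The numbers did not pair the libraries (correlations of deviations -0.21 to 0.16 over 6 pairs of groups); a crossed pairing of the null days 8 and 14 called 0. In rank by mean level without length scaling, Auts2 was 2, Csnk2b 4, Pcgf5 5 and Fbrs 6.

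Leaving out 1 library at a time gave 2 to 4 called genes from day 0 to 8 and 0 to 1 from day 8 to 14 in wild type. Day 0 libraries were not left out in this way. These values that had not passed spanned 0. From day 0 to 8, Pcgf3 ran from -0.19 to 0.012 in wild type and -0.20 to 0.62 in the null; from day 0 to 14 in wild type, Pcgf5 from -0.23 to 0.064. From day 8 to 14 in wild type, Fbrs ran from -0.27 to 0.53, Fbrsl1 from -0.14 to 0.81, Csnk2a1 from -0.13 to 0.053 and Csnk2b from -0.32 to 0.031; in the null, Pcgf3 from -0.011 to 0.80, Csnk2b from -0.24 to 0.57 and Auts2 from -0.27 to 0.023. Between genotypes at day 8, Pcgf3 ran from -0.35 to 0.46, Pcgf5 from -0.23 to 0.10 and Fbrsl1 from -0.10 to 0.27; at day 14, Pcgf3 from -0.14 to 0.32, Fbrsl1 from -0.10 to 0.84 and Csnk2b from -0.26 to 0.051. In the interaction of days 0 to 8, Pcgf3 ran from -0.11 to 0.69, Fbrs from -0.32 to 0.47 and Csnk2b from -0.67 to 0.13; in that of days 8 to 14, Pcgf3 from -0.39 to 0.41, Fbrsl1 from -0.18 to 0.77 and Csnk2b from -0.079 to 0.72. The cause of these shifts was not tested. Over all genes, calls ran from 28 to 708 (null against wild type, day 8), 14 to 637 (day 14), 108 to 1851 (day 8 to 14, wild type), 555 to 1892 (null) and 0 to 273 (interaction, days 0 to 8), the highest of the genotype and interaction counts being those without a filter.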
